A study of Mus musculus with 9 samples.

Results

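Transcripts of 4 genes tied to the transcription factor NF-kB were followed: the feedback inhibitors Nfkbia and Tnfaip3, the adhesion molecule Icam1 and the interferon regulatory factor Irf1. They were taken by symbol from a deposited table of 675 genes, and all 4 were found in it. The cells were wild-type mouse brain microvascular endothelial cells, which line brain capillaries; the labels call them a cell line. They were kept without oxygen, glucose and fetal bovine serum in the presence of 3 µM obacunone (OGD+Oba), under the same oxygen-glucose deprivation without obacunone (OGD), or in normoxia. Obacunone is a limonoid from citrus fruit, and OGD is a culture model of ischemia. Each arm was sampled at 1, 3 and 6 h, and each of the 9 groups held 1 library. The labels do not give the medium of the normoxia cultures.

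NF-kB waits in the cytoplasm of resting cells, bound by IkB proteins. Inflammatory signals such as TNF, IL-1 or bacterial products lead to phosphorylation and destruction of IkB alpha, the product of Nfkbia, and NF-kB then enters the nucleus. Among the genes it switches on are those of its own inhibitors, so that new IkB alpha and the ubiquitin-editing enzyme A20, the product of Tnfaip3, end the signal. In endothelium NF-kB also drives Icam1, the ligand by which leukocytes hold on to the vessel wall, and Irf1, which carries the response to interferons.

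Values are FPKM, fragment counts divided by transcript length and by the fragments of the library, so levels of different genes can be set side by side. All 675 genes have a log2 ratio of OGD to normoxia of at least 1 in size at 6 h in the authors' deposited table. It is positive for 350 of them and negative for 325. Values at 6 h therefore describe genes chosen on that comparison and are given without a test. The authors' rule is not given in the sources used here, so whether earlier libraries also entered the choice is not known. Genes that change at 6 h may also be those that change earlier. The sums of FPKM over the table ran between 14198 and 22631. They are not library depths, no read totals were used here, and no counting interval can be given. In bulk RNA, fewer expressing cells and less transcript per cell cannot be told apart. Of 21 endothelial markers 2 were in the table, too few to check the cell label. Slc2a1, the glucose transporter of the barrier, stood between 71.2 and 577 FPKM, and the VEGF receptor Flt1 between 0.05 and 0.68.

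Nfkbia (NCBI gene 18035) lies on the minus strand of chromosome 12, 55489410 to 55492647, in GENCODE M21 on GRCm38. Tnfaip3 (gene 21929) lies on the minus strand of chromosome 10, 19000910 to 19015657. Icam1 (gene 15894) lies on the plus strand of chromosome 9, 21015985 to 21028817, and Irf1 (gene 16362) on the plus strand of chromosome 11, 53770014 to 53778374. Their transcripts were mostly unique: 0.19% of the 31-base words of Nfkbia, 0% of Tnfaip3, 3.5% of Icam1 and 0.34% of Irf1 also occurred in transcripts of other genes. On the opposite strand, Gm47079 overlaps Icam1 over 511 bases and Gm17334 overlaps Irf1 over 907 bases. Whether strand was used in the counting is not given in the sources used here, so reads from these overlaps could not be assigned to a strand.

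The start regions of the 4 genes are shown because NF-kB is known to bind such regions. Whether their motifs bear on how the genes moved was not tested. Each line runs 5′ to 3′ on the gene's strand, covers 250 bases before and 50 bases after the upstream RefSeq start (GRCm38.p6), and has in capitals every match to 3 motifs. The motifs are the kappaB consensus, its variant GGAAATTCC, and TTCNNNGAA, the palindrome bound by STAT factors; both strands were searched.
Nfkbia, chr12:55492598-55492897, minus strand: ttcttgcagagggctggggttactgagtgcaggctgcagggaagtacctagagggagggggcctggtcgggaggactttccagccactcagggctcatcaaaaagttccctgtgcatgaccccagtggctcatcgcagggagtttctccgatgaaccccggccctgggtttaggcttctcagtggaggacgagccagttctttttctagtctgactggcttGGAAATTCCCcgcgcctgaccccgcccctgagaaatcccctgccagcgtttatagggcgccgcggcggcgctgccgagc
Tnfaip3, chr10:19015361-19015660, minus strand: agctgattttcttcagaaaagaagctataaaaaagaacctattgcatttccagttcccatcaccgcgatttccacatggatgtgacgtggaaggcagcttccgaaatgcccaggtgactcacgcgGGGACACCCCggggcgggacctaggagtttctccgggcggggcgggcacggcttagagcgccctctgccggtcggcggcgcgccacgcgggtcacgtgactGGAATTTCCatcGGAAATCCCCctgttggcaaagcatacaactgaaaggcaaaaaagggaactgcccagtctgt
Icam1, chr9:21015690-21015989, plus strand: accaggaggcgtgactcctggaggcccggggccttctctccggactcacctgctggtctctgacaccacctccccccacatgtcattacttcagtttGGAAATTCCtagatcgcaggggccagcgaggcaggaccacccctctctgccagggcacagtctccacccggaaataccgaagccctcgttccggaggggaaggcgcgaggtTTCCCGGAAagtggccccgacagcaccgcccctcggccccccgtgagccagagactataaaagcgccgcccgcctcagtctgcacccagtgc
Irf1, chr11:53769764-53770063, plus strand: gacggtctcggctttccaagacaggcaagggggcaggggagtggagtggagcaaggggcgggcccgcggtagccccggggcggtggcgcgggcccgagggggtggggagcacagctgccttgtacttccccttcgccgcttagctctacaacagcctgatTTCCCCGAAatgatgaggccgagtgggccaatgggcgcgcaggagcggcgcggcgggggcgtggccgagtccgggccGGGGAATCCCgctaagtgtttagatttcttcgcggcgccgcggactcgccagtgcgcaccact

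In Nfkbia, the capitals mark GGAAATTCCC at -29 to -20 from the start, which matches the kappaB consensus on the opposite strand and holds the variant GGAAATTCC in the same bases. Tnfaip3 carried 2 sites that match the consensus, GGGACACCCC at -125 to -116 and GGAAATCCCC at -12 to -3. Between them lay the variant, read on the opposite strand, at -24 to -16. Icam1 had no match to the consensus in this window. It had the variant at -153 to -145 and the STAT palindrome TTCCCGGAA at -42 to -34. Irf1 had the STAT palindrome TTCCCCGAA at -90 to -82 and the consensus site GGGGAATCCC at -13 to -4. The STAT palindrome thus stood in the Icam1 and Irf1 windows, and neither inhibitor window held one.

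Of 32851 RefSeq start windows of this length in the mouse genome, 8.46% held a kappaB consensus match, 0.317% the variant GGAAATTCC and 8.3% the STAT palindrome. The core ACGTG of hypoxia-inducible factor sites, present in 19.6% of windows, was found in Tnfaip3 at -166 to -162 and, on both strands with overlap, between -33 and -28. It was not found in the windows of the other 3 genes. A TATAAA match, present in 13.6% of windows, lay at 14 to 19 after the start in Icam1, on the opposite strand at 20 to 25 after the start in Nfkbia, and at -225 to -220 in Tnfaip3. These are matches of letters and say nothing on binding in these cells. Distances also depend on the start used. For Tnfaip3 the RefSeq start was 19015410, inside the GENCODE gene, which begins at 19015657 on the minus strand. For Icam1 it was 21015940, before the GENCODE start at 21015985. For Nfkbia and Irf1 both sources gave the same start.

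**Figure D1:**
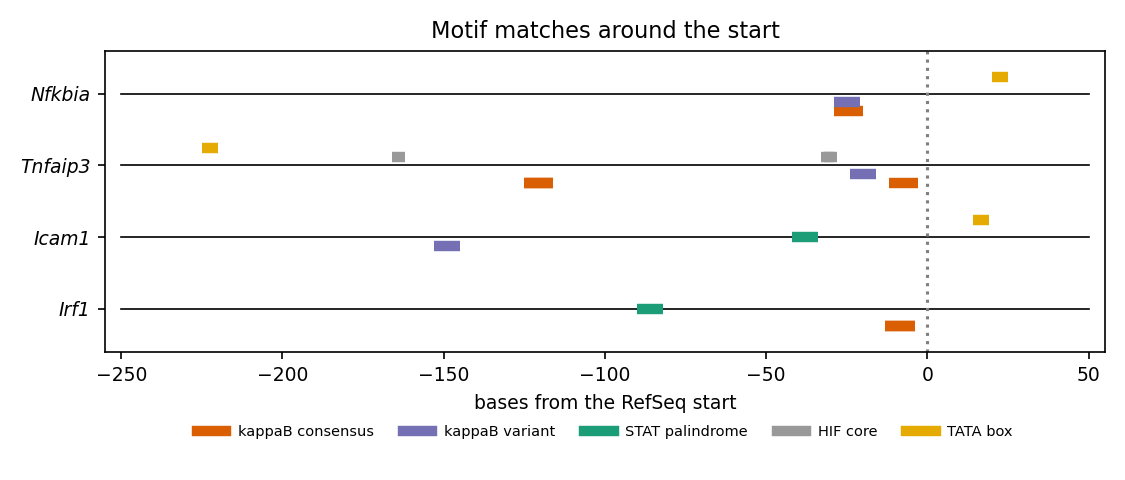
Motif matches in the start windows of the 4 genes; the horizontal axis is the distance in bases from the upstream RefSeq start (dotted line), negative before it, and each coloured bar is a match on either strand. Nfkbia, Tnfaip3 and Irf1 have a kappaB consensus match within 29 bases before the RefSeq start, while the variant of Icam1 lies at -153 to -145. For Tnfaip3 and Icam1 the GENCODE start differs, and distances from it would too.

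The first question was how the inhibitors of NF-kB answered deprivation. Both were lower in deprived cells at 1 h and higher at 3 h, and their values went on upward to 6 h. Nfkbia stood at 21.6, 37.0 and 90.0 FPKM in OGD+Oba at 1, 3 and 6 h, at 19.3, 38.8 and 95.3 in OGD, and at 42.9, 18.2 and 14.6 in normoxia. The normoxia library at 1 h was thus the highest of its arm, and it exceeded both deprived libraries at 1 h and at 3 h. At 6 h both deprived libraries lay above all normoxia libraries, and at 1 h and 3 h they lay within the normoxia range of 14.6 to 42.9. For comparison, the pair of deprived values fell outside the whole normoxia range for 27.4% of the genes tested at 1 h (10.7% above, 16.7% below). It did so for 76% at 3 h (37.2% above, 38.8% below) and for 90.9% at 6 h (48.4% above, 42.4% below).

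Tnfaip3 stood at 2.36, 11.96 and 25.8 FPKM in OGD+Oba at 1, 3 and 6 h, at 3.25, 11.4 and 27.1 in OGD, and at 9.03, 5.73 and 4.95 in normoxia. In contrast to Nfkbia, its deprived libraries did not overlap the normoxia range of 4.95 to 9.03 at any time, and the same held for Irf1. The deprived libraries of Tnfaip3 lay below its range at 1 h and above it at 3 h and 6 h. Of all genes tested, 16.7%, 37.2% and 48.4% did so at these times.

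**Figure D2:**
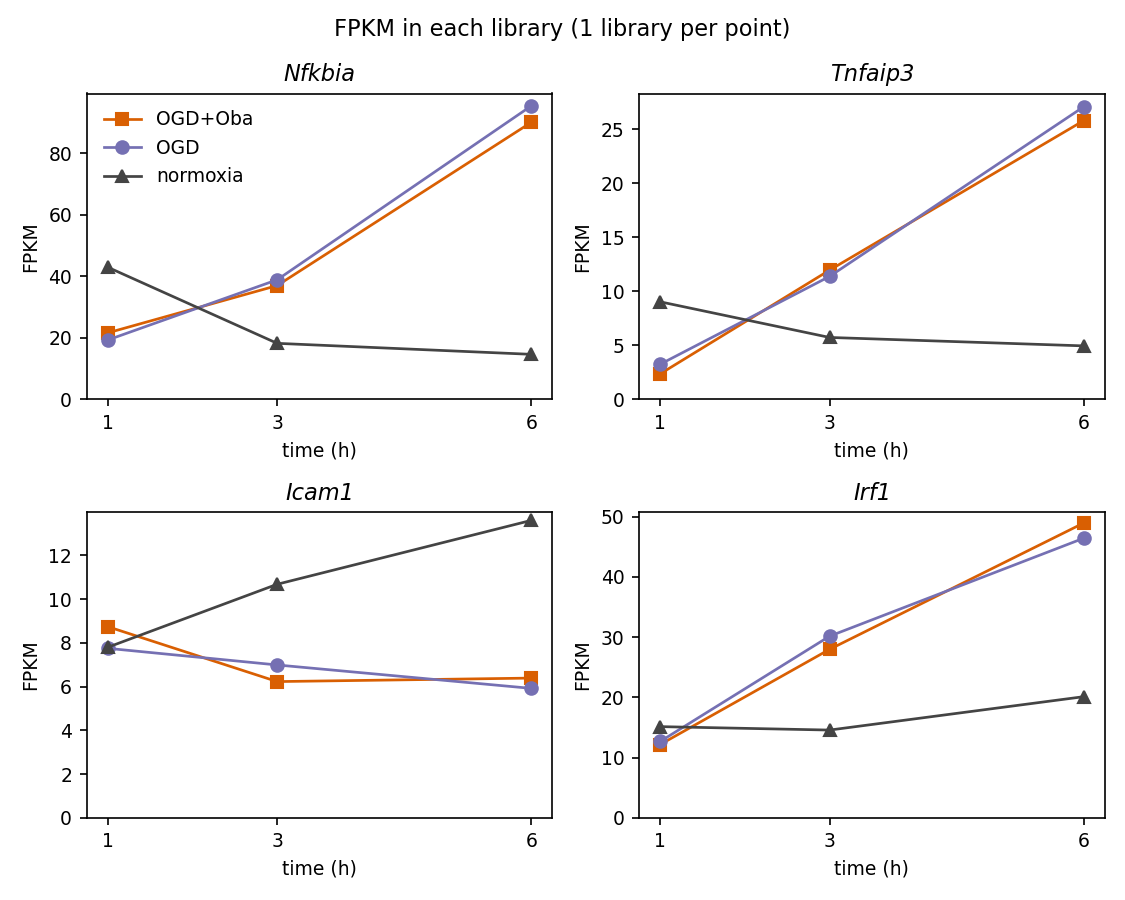
FPKM (vertical axis, from 0) of the 4 genes by time in hours, with 1 library per point; orange squares are OGD+Oba, purple circles OGD and dark triangles normoxia. The deprived lines of Nfkbia and Tnfaip3 lie below normoxia at 1 h and above it at 3 h, those of Irf1 part upward from 12.2 and 12.7 at 1 h, and those of Icam1 stay near 6 to 9 while normoxia reaches 13.6.

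Differences were fitted in limma on log2(FPKM + 1), a scale that understates the change of low genes, over the 580 genes that averaged 1 FPKM or more. OGD and OGD+Oba at a time stand as a pair of deprived libraries, from which the error comes. Normoxia has a single library at each time, whose spread is taken to be that of the deprived pairs. P-values are adjusted by the Benjamini-Hochberg method over all 580 genes with a threshold of 0.05. The labels name no separate cultures behind a group, so they measure the spread between these libraries, which may be technical.

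At 1 h Nfkbia fell by 1.04 ± 0.13 (SE) on the log2 scale under OGD (limma, adjusted p = 0.00362) and Tnfaip3 by 1.35 ± 0.20 (adjusted p = 0.00653). Of all genes tested, 3.79% were called at 1 h, and each of these was lower under OGD. Rescaling the libraries by median ratios, taken over genes of this chosen table, left Nfkbia at -0.93 and ended its call (adjusted p = 0.169). Its adjusted p ran between 0.000286 and 0.0386 over the other alternatives. The call of Tnfaip3 held throughout, with an adjusted p of at most 0.0248. At 3 h the direction was the opposite: Nfkbia rose by 1.02 ± 0.13 (adjusted p = 0.000656) and Tnfaip3 by 0.97 ± 0.20 (adjusted p = 0.00507). This is near the background of the table, since 56% of the genes tested were called at 3 h, 31.2% higher and 24.8% lower. At 6 h the fitted differences were 2.58 and 2.26, in a comparison where 97.6% of genes pass the same threshold by the choice of the table (52.9% higher, 44.7% lower).

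The change of the OGD difference between 1 h and 3 h was tested directly. It was 2.06 ± 0.18 for Nfkbia (limma, adjusted p = 9.49e-05) and 2.32 ± 0.26 for Tnfaip3 (adjusted p = 0.000371), on a background of 37.1% of genes called (26.4% higher, 10.7% lower). In numbers of genes this was 153 higher and 62 lower, and 132 and 95 under median-ratio scaling. The same fit splits this change into what the deprived and the normoxia libraries did. For Nfkbia, deprived cells were higher at 3 h than at 1 h by 0.86 ± 0.10 (adjusted p = 0.000381), and normoxia cells were lower by -1.19 ± 0.15 (adjusted p = 0.00111). The normoxia part of this change was thus the larger one for Nfkbia.

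For Tnfaip3 the larger part lay in the deprived libraries, which were higher at 3 h by 1.75 ± 0.15 (limma, adjusted p = 6.58e-05). Normoxia differed by -0.58 ± 0.21 and was not called (adjusted p = 0.113). Between 1 h and 3 h, 47.2% of genes were called in deprived cells (29.5% higher, 17.8% lower) and 18.4% in normoxia cells. The normoxia contrast was added after these values were seen. Time in normoxia and a trait of the single 1 h library cannot be told apart.

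**Figure D3:**
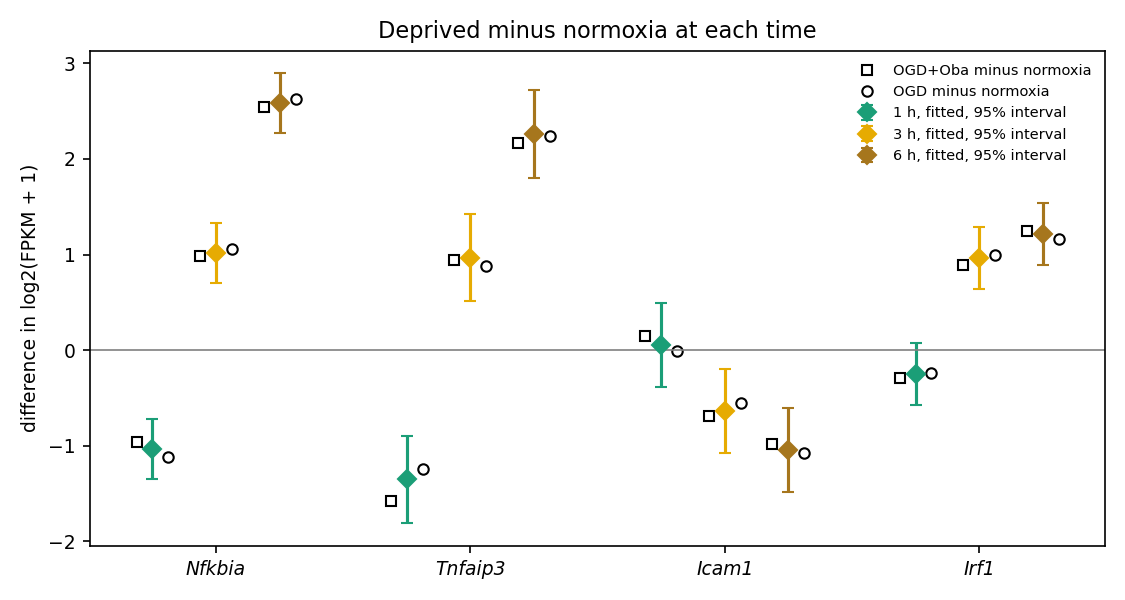
Deprived minus normoxia in log2(FPKM + 1) for each gene at 1, 3 and 6 h, from left to right within a gene; diamonds are fitted OGD differences with 95% intervals, open squares OGD+Oba minus normoxia and open circles OGD minus normoxia. Nfkbia lies at 1.02 and Tnfaip3 at 0.97 at 3 h, both below 0 at 1 h, Icam1 lies at 0.05 at 1 h and below 0 afterwards, and the 6 h values belong to a table chosen on that comparison.

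The ratio of the 2 inhibitors lay between 3.09 and 3.52 in both deprived arms at 3 h and 6 h. Nfkbia exceeded Tnfaip3 by 9.15, 3.09 and 3.49 times in OGD+Oba at 1, 3 and 6 h, by 5.93, 3.41 and 3.52 times in OGD, and by 4.75, 3.17 and 2.95 times in normoxia. The 1 h library was the highest of each arm. Both 1 h deprived ratios rest on Tnfaip3 levels near 3 FPKM.

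Irf1 encodes a transcription factor that acts on interferon-stimulated and antigen-presentation genes. It stood at 12.2, 28.0 and 48.9 FPKM in OGD+Oba at 1, 3 and 6 h, at 12.7, 30.15 and 46.4 in OGD, and at 15.1, 14.6 and 20.1 in normoxia. Deprived libraries lay below the normoxia range at 1 h and above it at 3 h and 6 h. Of all genes tested, 16.7% lay below at 1 h, and 37.2% and 48.4% above at 3 h and 6 h.  At 1 h the OGD difference was -0.25 ± 0.14 and was not called (limma, adjusted p = 0.771). At 3 h Irf1 rose by 0.96 ± 0.14 (adjusted p = 0.000948), close to the size seen for both inhibitors, and at 6 h the fitted difference was 1.22, below theirs.

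The change of its OGD difference between 1 h and 3 h was 1.21 ± 0.19 (limma, adjusted p = 0.00181). Nearly all of it lay in the deprived libraries, which were higher at 3 h than at 1 h by 1.16 ± 0.11 (adjusted p = 9.08e-05). Normoxia libraries differed by -0.05 ± 0.15 (adjusted p = 0.849); this sign turned under median-ratio scaling, to 0.02. In normoxia, Nfkbia was 2.83 times Irf1 at 1 h, 1.25 times at 3 h and 0.727 times at 6 h. No test was run between genes.

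Icam1 encodes the endothelial ligand of leukocyte integrins. Unlike the other 3 genes, it was lower in deprived cells than in normoxia at 3 h and 6 h. It stood at 8.74, 6.23 and 6.39 FPKM in OGD+Oba at 1, 3 and 6 h, at 7.75, 6.99 and 5.92 in OGD, and at 7.8, 10.7 and 13.6 in normoxia. At 1 h the OGD library lay just below the normoxia library and the OGD+Oba library above it. At 3 h and 6 h both deprived libraries lay below all normoxia libraries, as for 38.8% and 42.4% of all genes tested. The highest library exceeded the lowest by 2.3 times, against 11.5 times for Tnfaip3, 6.52 for Nfkbia and 4.02 for Irf1.

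At 1 h the OGD difference of Icam1 was 0.05 ± 0.19 (limma, adjusted p = 0.995; 95% interval -0.39 to 0.49). At 3 h Icam1 fell by 0.64 ± 0.19 on the log2 scale (adjusted p = 0.0234), a call lost without the 6 h libraries (adjusted p = 0.0705). At 6 h the fitted difference was -1.05. The change between 1 h and 3 h was -0.69 ± 0.25 and was not called (adjusted p = 0.067). It was made up of -0.28 ± 0.15 in deprived cells (adjusted p = 0.148) and 0.41 ± 0.21 in normoxia cells (adjusted p = 0.229). Neither part was called. From 3 h to 6 h deprived cells differed by -0.09 ± 0.15, while the normoxia library at 6 h was 1.27 times that at 3 h.

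Within deprivation the course to 6 h was followed in the OGD+Oba libraries, which do not enter the 6 h ratio of OGD to normoxia. They shared the deprivation and times of the OGD libraries, so they are not independent of the choice of genes. From 3 h to 6 h the OGD+Oba libraries differed by 1.26 for Nfkbia, 1.05 for Tnfaip3, 0.79 for Irf1 and 0.03 for Icam1 on the log2 scale. The median over all genes tested was 0.08. The OGD libraries differed by 1.27, 1.18, 0.61 and -0.21. In the fit over both arms 33.4% of genes were called between 6 h and 3 h, 25.7% higher and 7.76% lower. Those were 149 higher and 45 lower, and under median-ratio scaling 67 and 65. That fit includes the OGD library used to choose the table, and its p-values are not given. Both arms thus had the inhibitors first, Irf1 next and Icam1 last.

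In order of level, Nfkbia was the highest of the 4 genes in 8 libraries and Irf1 in normoxia at 6 h. At 6 h Tnfaip3 was 4.04 and 4.57 times Icam1 in OGD+Oba and OGD, and 0.364 times in normoxia. At 1 h it was 0.27 and 0.419 times Icam1 in the same deprived arms and 1.16 times in normoxia. The last 2 places of the order, Tnfaip3 and Icam1, thus changed with both time and arm. Single libraries give no spread for a test between neighbours in this order.

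An additive fit, with 1 OGD effect common to the 3 times, gave OGD differences of 0.85 ± 0.53 for Nfkbia, 0.63 ± 0.48 for Tnfaip3, 0.64 ± 0.41 for Irf1 and -0.54 ± 0.35 for Icam1. None was called in limma (adjusted p between 0.24 and 0.29), where 4.14% of genes were (3.1% higher, 1.03% lower). Those were 18 genes higher and 6 lower, and under median-ratio scaling 3 and 3. This fit takes the turn between 1 h and 3 h as error, and it includes the 6 h libraries on which the table was chosen. Without the 6 h libraries 3 genes were called, and the values of both inhibitors turned, to -0.030 for Nfkbia and -0.18 for Tnfaip3. Irf1 was then at 0.38 and Icam1 at -0.28. Without the 3 h libraries 6 genes were called. Leaving out all 1 h libraries gave 437 genes, and leaving out normoxia at 1 h, chosen after the data were seen, gave 480. In both of these the chosen 6 h comparison weighs more, so the calls of single genes are not read.

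The next question was whether obacunone altered these levels within deprivation. No difference was detected for any of the 4 genes. OGD+Oba minus OGD at 1, 3 and 6 h was 0.16, -0.07 and -0.08 for Nfkbia and -0.34, 0.07 and -0.07 for Tnfaip3 on the log2 scale. It was 0.15, -0.14 and 0.09 for Icam1 and -0.05, -0.10 and 0.07 for Irf1. No gene kept its sign at each time. The largest size, for Tnfaip3 at 1 h, is 2.36 against 3.25 FPKM; the median size over all genes at 1 h was 0.17.

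Over the 3 pairs the obacunone difference was 0.00 ± 0.09 for Nfkbia, with a 95% interval of -0.20 to 0.20. It was -0.11 ± 0.12 for Tnfaip3, interval -0.40 to 0.18, and 0.04 ± 0.12 for Icam1, interval -0.24 to 0.31. For Irf1 it was -0.03 ± 0.09, interval -0.23 to 0.18. Each had an adjusted p of 0.999 in limma, and 0.172% of genes, 1 of 580, were called; 22 genes had an unadjusted p under 0.05, and none of the 4 was among them. Changes within these intervals are not shown to be absent. In the authors' deposited table the log2 ratios at 1 h were 0.30, -0.32, 0.32 and 0.08 for Nfkbia, Tnfaip3, Icam1 and Irf1. All 4 are higher there than the differences from FPKM, and for Irf1 the sign is thereby the opposite. The cause was not tested.

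**Figure D4:**
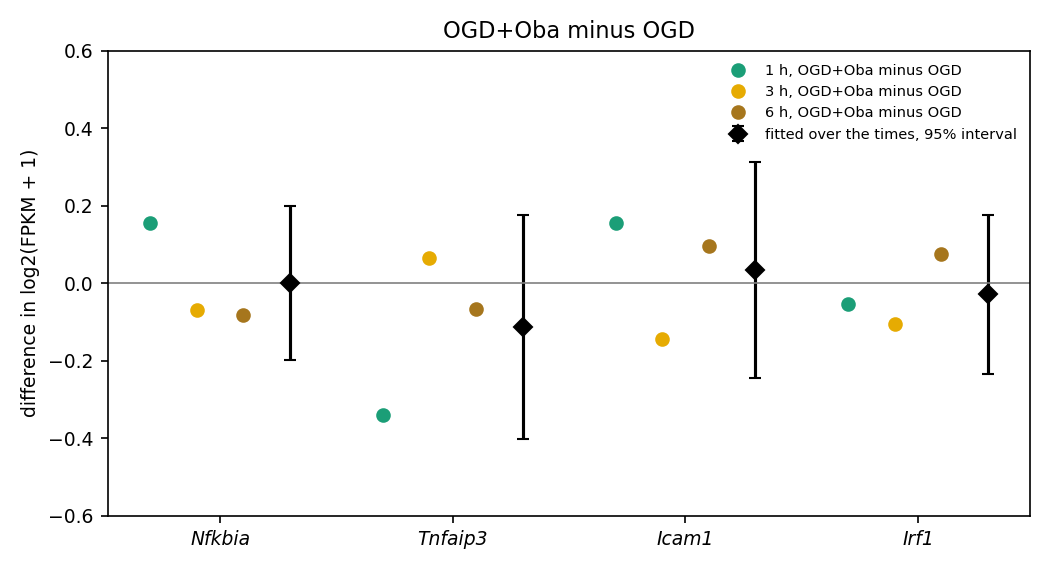
OGD+Oba minus OGD in log2(FPKM + 1) for the 4 genes; coloured points are single pairs of libraries at 1, 3 and 6 h, and black diamonds the fitted difference over the times with its 95% interval. All 4 intervals include 0, and the point farthest from 0 is Tnfaip3 at 1 h, at -0.34.

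Other genes of the pathway were taken from lists, and only those chosen at 6 h could be seen. Of 43 genes of NF-kB signalling, 2 were in the table. Nfkbiz, an inducible nuclear IkB protein, was tested; Tlr2, a receptor for bacterial lipoproteins, stood under 1 FPKM on average. Nfkbiz stood at 4.87, 10.4 and 25.6 FPKM in OGD+Oba at 1, 3 and 6 h, at 7.82, 8.4 and 24.8 in OGD, and at 14.2, 4.02 and 5.31 in normoxia. Its normoxia library at 1 h was the highest of its arm, as for Nfkbia. The OGD difference was -1.04 ± 0.27 at 1 h, not called (limma, adjusted p = 0.104), and Nfkbiz rose by 1.09 ± 0.27 at 3 h (adjusted p = 0.0118).

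Of 38 NF-kB target genes, 10 were in the table and tested. At 1 h 4 of them fell, with a median of -0.87 over the 10 against -0.05 over all genes, of which 3.79% fell: the chemokines Cxcl1 and Cxcl2, the stress gene Ier3 and the mRNA decay factor Zfp36. At 3 h 6 rose and 1 fell, where 31.2% of all genes rose and 24.8% fell, with a median of 0.79 against 0.08. Those that rose were Cxcl1, Cxcl2, Ier3, the growth factor Csf2, the stress gene Gadd45b and the proteoglycan Sdc4, and the one that fell was the monocyte chemokine Ccl2. Ccl2 was lower under OGD by 1.08 ± 0.21 on the log2 scale, the sign of Icam1 at that time. It stood at 18.6 FPKM in OGD+Oba and 19.6 in OGD at 3 h, against 48.8 in the single normoxia library. From 1 h to 3 h the deprived libraries of Ccl2 were higher by 0.97 ± 0.16, while those of Icam1 differed by -0.28 ± 0.15. At 6 h Ccl2 did not share the sign of Icam1: it stood at 15.2 FPKM in OGD+Oba and 23.9 in OGD, against 12.05 in normoxia.

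Among the 10, Cxcl1 and Cxcl2 differed most between normoxia at 3 h and 1 h, by -2.65 and -2.90. Cxcl1 was at 9.44 FPKM in OGD+Oba and 10.7 in OGD at 1 h, against 91.9 in normoxia, and normoxia was at 13.8 at 3 h and 14.9 at 6 h. Between normoxia at 3 h and 1 h, 5 of the 10 target genes were called lower and Ccl2 was called higher, on a background of 12.8% lower and 5.69% higher. No target gene was called for obacunone in limma; Ccl2, at -0.45, had an unadjusted p of 0.0104 and an adjusted p of 0.474.

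**Figure D5:**
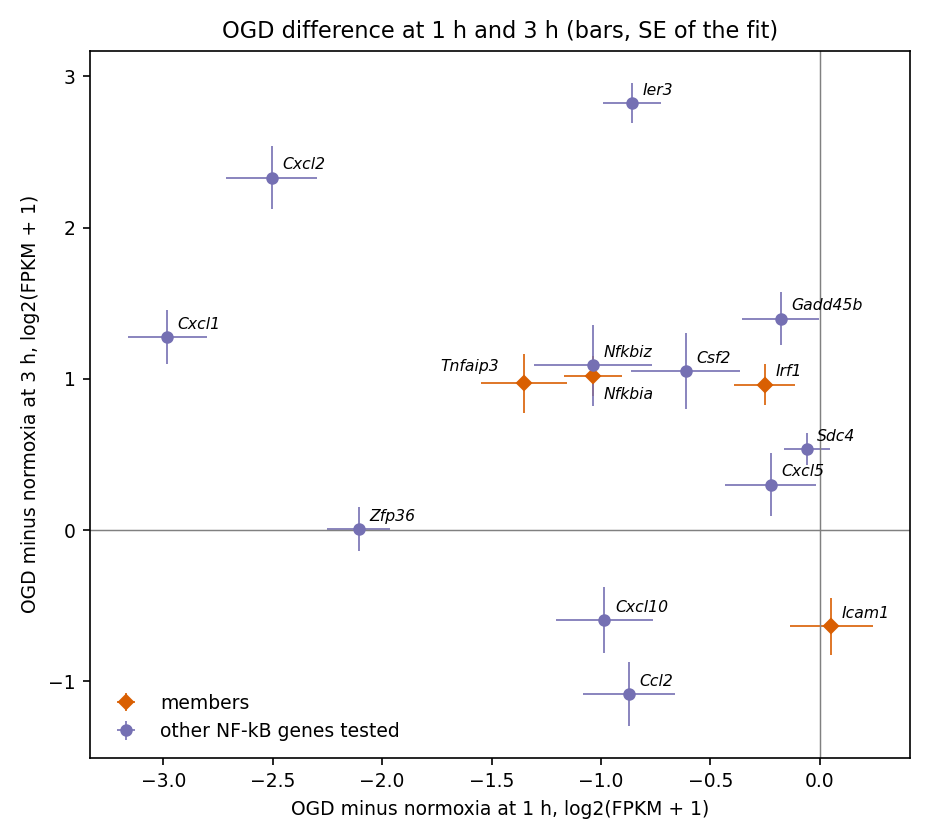
OGD minus normoxia in log2(FPKM + 1) at 1 h (horizontal axis) against 3 h (vertical axis), with SE bars from the fit; orange diamonds are the 4 genes and purple circles the 11 other NF-kB genes tested. Nfkbia and Tnfaip3 lie at the upper left, lower at 1 h and higher at 3 h, as do Cxcl1, Cxcl2 and Ier3, and Icam1 lies below 0 at 3 h with Ccl2 and Cxcl10.

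Of 48 genes of the interferon list, 7 were tested, and at 3 h 2 of these rose, a share near the 31.2% of all genes. Oasl1, an interferon-induced protein, stood at 54.1, 121 and 142 FPKM in OGD+Oba, at 56.5, 116 and 155 in OGD, and at 59.6, 79.5 and 68.0 in normoxia. It rose by 0.59 ± 0.11 at 3 h (limma, adjusted p = 0.00289). Irf2bp2, a corepressor that binds IRF2, rose by 1.66 ± 0.15. Irf8, a factor of immune cells, and Socs3, an inhibitor of cytokine signalling, differed by 0.42 ± 0.21 and 0.37 ± 0.20 and were not called. None of the 22 genes of the endothelial adhesion list, such as Vcam1 and Sele, was found by symbol in the table, so their levels are not known here. Cldn4, 1 of 5 epithelial markers and the one in the table, stood at 260 and 271 FPKM in OGD+Oba and OGD at 3 h against 97.6 in normoxia, and the neuron marker Tubb3 at 3.47 and 3.43 against 10.7. The listed markers of microglia, astrocytes, pericytes and fibroblasts were not found in the table either. The part of other cell types in these results was not tested.

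By Pearson correlation of log2(FPKM + 1) over the 9 libraries, the genes most like each of the 4 were taken among 540 candidates. The points share libraries, and the table was chosen on 6 h, so these are descriptions. Nfkbia was most like the kinase Pim1 (r = 0.98), then Ier5l and the AP-1 subunit Junb (both r = 0.96). Pim1 stood at 6.19, 11.8 and 18.1 FPKM in OGD+Oba, at 6.05, 11.7 and 20.04 in OGD, and at 10.1, 5.77 and 5.21 in normoxia. It had the high 1 h normoxia library of Nfkbia, over a smaller range.

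Among the 3 genes most like Tnfaip3 were the zinc finger factor Klf10 and the ERK phosphatase Dusp5 (both r = 0.97). Irf1 was most like the AP-1 subunit Fosl2 (r = 0.98), the glycolytic regulator Pfkfb3 (r = 0.98) and Rassf1 (r = 0.97). Icam1 was most like Arhgef39 (r = 0.99), the zinc finger gene Zfp54 and the interferon-inducible Ifi209 (both r = 0.98). Ifi209 stood at 10.9, 7.89 and 7.1 FPKM in OGD+Oba, at 10.4, 8.28 and 6.18 in OGD, and at 10.0, 14.2 and 17.8 in normoxia. As for Icam1, its normoxia values were higher at the later times and its deprived values lower. Among the 4 genes themselves, r was 0.92 for Nfkbia and Tnfaip3, 0.93 for Tnfaip3 and Irf1, and 0.83 for Nfkbia and Irf1. With Icam1 it was -0.82 for Nfkbia, -0.66 for Tnfaip3 and -0.59 for Irf1.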

How the data were processed

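RNA-seq was made from 9 libraries, 1 per group. Per the file headers, the authors deposited FPKM with 2 decimals, lowest value above 0 of 0.01, and their own log2 ratio of OGD to normoxia and of OGD+Oba to OGD. The submitters' processing notes name HISAT2 2.0.4 and GRCm38; the counting tool and the annotation are not given in the sources used here. FPKM gives no total counts, so the depth per sample is unknown. Values were analysed as log2(FPKM + 1) for the 580 genes averaging 1 FPKM or more.

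The pair model had terms for time, for OGD at each time separately, and a single term for obacunone. It left 2 residual degrees of freedom, to which limma's prior added 5.48. The additive model had terms for time and arm and left 4, with a prior of 21.3. R 4.3.3 and limma 3.58.1, with a mean-variance trend, fitted both, and both were checked on simulated data. All 9 simulated libraries had the same spread, so the check could not bear on the spread assumed for single normoxia libraries. It also held no choice of genes at 6 h. Alternatives were no floor, a floor of 5 FPKM, median-ratio scaling, a pseudocount of 0.1, limma robust or without the trend, and leaving out each time. Without the normoxia library at 1 h, and normoxia at 3 h against 1 h, were added after the data were seen.

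The 4 genes and the lists were chosen with earlier results of these data known. List genes could be named where their mean reached 1 FPKM, and the 3 most correlated genes for each of the 4, passing over predicted genes; 1 of those for Tnfaip3 is not reported here. Start windows came from RefSeq (GRCm38.p6) and matched all 4; positions, overlaps and 31-base words came from GENCODE M21. Tnfaip3 and Irf1 have 2 RefSeq starts, and the upstream one was printed.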

Additional observations from a re-analysis of the deposited data

Results flagged for a closer look

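The OGD difference changed between 1 h and 3 h for 3 of the 4 genes, by the test of the change itself in limma, as it did for 37.1% of all genes tested (26.4% higher, 10.7% lower). The change was 2.06 on the log2 scale for Nfkbia (adjusted p = 9.49e-05), 2.32 for Tnfaip3 (adjusted p = 0.000371) and 1.21 for Irf1 (adjusted p = 0.00181). Both deprived libraries moved with it in each gene: from 1 h to 3 h OGD+Oba and OGD differed by 0.75 and 0.97 for Nfkbia, 1.95 and 1.54 for Tnfaip3, and 1.14 and 1.19 for Irf1. The normoxia library at 1 h enters each of these changes. It held 42.9 FPKM of Nfkbia and 9.03 of Tnfaip3, the highest of its arm for both, and 15.1 of Irf1, which was not.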

How the results depend on the processing

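No paired analysis was possible because the labels give no replicate numbers, other than the pairing of OGD+Oba with OGD by time that both models hold. Median-ratio factors came from 647 genes of this table, all changed at 6 h, so this scaling may take up part of that change. At 6 h they were 0.88 for normoxia and 1.15 for OGD. Median-ratio scaling moved the median of all genes at 6 h to 0.50, against 0.76, and at 1 h to 0.04, against -0.05. Under it Nfkbia at 1 h was -0.93 and not called, and counts of genes were 10 at 1 h (22 as reported), 66 between normoxia times (107), 0 for obacunone (1) and 6 over the times (24). Irf1 between normoxia times turned to 0.016. limma without trend gave 66 between normoxia times and 0 for obacunone, and robust 0 for obacunone and 44 over the times. A floor of 5 FPKM gave 370 at 6 h (566), fewer genes being tested, and a pseudocount of 0.1 gave 14 over the times.

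Leaving out a time gave 34 to 36 genes at 1 h, and Icam1 at 3 h ranged over -0.62 to -0.61. For obacunone it gave 6 to 13 genes, with Nfkbia at -0.076 to 0.043, Icam1 at -0.025 to 0.12 and Irf1 at -0.080 to 0.00995, so that their signs turned; none was called. Over the times, leaving out a time or normoxia at 1 h gave 3 to 480 genes, with Nfkbia at -0.030 to 1.84, Tnfaip3 at -0.18 to 1.62, Icam1 at -0.84 to -0.28 and Irf1 at 0.38 to 1.09. The lowest inhibitor values were those without the 6 h libraries. Unless named, the cause was not tested. Of the 3 most correlated genes, 3 were kept for each of the 4 at a pseudocount of 0.1. With median-ratio scaling 3 were kept for Nfkbia and Irf1, and 2 for Tnfaip3 and Icam1.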

Other observations

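The second RefSeq start windows of Tnfaip3 and Irf1 held no kappaB consensus, no GGAAATTCC and no STAT palindrome; that of Tnfaip3 held 1 match to ACGTG. In the authors' deposited table the log2 ratios of OGD to normoxia at 1, 3 and 6 h were -1.18, 1.16 and 2.76 for Nfkbia and -1.49, 1.05 and 2.52 for Tnfaip3. They were -0.04, -0.55 and -1.15 for Icam1 and -0.28, 1.11 and 1.26 for Irf1. These ratios carry no pseudocount in the sense used above, and the scaling behind them is not given in the sources used here.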
